A study of Mus musculus with 8 samples.

Results

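Microglia of A20 cKO mice were compared before and after nerve injury: the library labelled A20 cKO day 3 was set against the library labelled A20 cKO naive, which are 2 of the 8 libraries of the study. Their members are the cell barcodes with at least 1000 unique molecular identifiers (UMIs, each marking 1 captured RNA molecule), at least 500 genes and at most 10% mitochondrial UMIs. These were 558 cells on day 3 and 2922 naive cells, together 3480 of the 14626 cells kept in all libraries. The study asked how spinal microglia divide after a peripheral nerve is cut. It sorted YFP-positive cells from the lumbar cord of C57BL/6 mice and sequenced them by droplet scRNA-Seq. A20 cKO animals were Cx3cr1-yfp-creER/+; Tnfaip3 fl/fl, and control animals carried the same Cx3cr1 allele without the floxed Tnfaip3 alleles. All animals, naive ones included, had received tamoxifen, which activates the Cre made in cells that express Cx3cr1. Both groups compared here thus carried the floxed alleles and received tamoxifen. The methods time experiments from the first tamoxifen dose but do not say whether surgery or harvest is meant. The time since tamoxifen may therefore differ between the groups. Day 3 means 3 days after both sciatic nerves were transected, and naive animals were not injured. Cords of 3 animals were pooled per library, so each side had 1 library and no test between the conditions was possible.

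A20, the protein that Tnfaip3 encodes, is a ubiquitin-editing enzyme that restrains NF-kB signalling downstream of TNF receptors, Toll-like receptors and other innate sensors, and its loss makes myeloid cells prone to inflammatory activation. Microglia, the macrophages that reside in brain and spinal cord, hold a homeostatic program in healthy tissue that includes the purinergic receptor P2ry12. In activated states this program recedes while chemokines, interferon-stimulated genes, or lysosomal and lipid-handling genes may be made. After a peripheral nerve is cut, microglia around the injured motor neurons and sensory terminals become reactive and divide.

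The deposited libraries held 579 barcodes with 2560763 UMIs on day 3 and 2980 barcodes with 8966485 UMIs in naive animals, within a range over all libraries of 1648400 to 15817426 UMIs. Kept cells had a median of 4274 UMIs on day 3 and 2824 in naive animals. The 9 microglia markers summed to 56219 CPM (UMIs scaled to 1000000 per library) on day 3 and 57145 CPM in naive animals, so both libraries were microglia by their markers. Of the other cell types checked, oligodendrocyte markers summed to 271 and 218 CPM, astrocyte markers to 306 and 394 CPM, endothelial markers to 39.3 and 27.8 CPM, monocyte markers to 65.3 and 39.4 CPM and neutrophil markers to 26 and 38.7 CPM on day 3 and in naive animals. The largest such sum on day 3 was that of choroid plexus or ependyma markers, at 410 and 131 CPM (1.64), which was mostly Ttr, described below. The monocyte sum was mostly Plac8 (54.7 and 32.1 CPM), while Ccr2, which defines inflammatory monocytes, was at 2.36 and 1.91 CPM. The 2 libraries shared 18 barcodes, and they belong to a set of 5 libraries (control day 3 and the 4 A20 cKO libraries) whose 10 pairs shared 256, against 125 over the 18 other pairs. Barcodes also found in another library made up 3.23% of the day 3 cells and 1.98% of the naive cells. The female-specific RNA Xist had 0 UMIs on day 3 and 1 in naive animals, and the Y-linked gene Eif2s3y had 317 and 1230 UMIs, although the methods describe animals of both sexes.

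Levels are UMIs summed over the cells of a library and given in CPM. Ratios are log2 of day 3 over naive after 0.5 UMIs were added to each sum, so that 1 is a 2-fold rise. Ranges after values are exact 95% intervals, which cover counting error only and not the spread between animals or preparations. Tnfaip3 itself, at chr10:19000910-19015657 of mm10, was at 67.7 CPM (57.9 to 78.6) on day 3 and 47.4 CPM (43.0 to 52.2) in naive animals, a log2 ratio of 0.52 (0.25 to 0.77). On days 1 and 2 it was at 42.3 and 52.4 CPM, and in the control day 3 library at 20.3 CPM. The RNA was thus present in every A20 cKO library and highest on day 3. Only the end of the transcript is read by this chemistry, so the level does not show whether the floxed part was removed.

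The comparison took in 8797 genes, each with 100 or more UMIs over both libraries. Of these 169 rose past 2-fold (1.92%) and 176 fell past 2-fold (2%), 345 in all (3.92%), and for each of the 345 the interval lay off 0. The median ratio of all 8797 genes was -0.098, and 3388 ratios were above 0. Centred on that median, 218 genes were past 2-fold upward and 130 downward. Of the 3467 genes whose mean reached 50 CPM, 60 were past 2-fold upward and 43 downward. These shares are the background for each count of gene groups below.

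**Figure D1:**
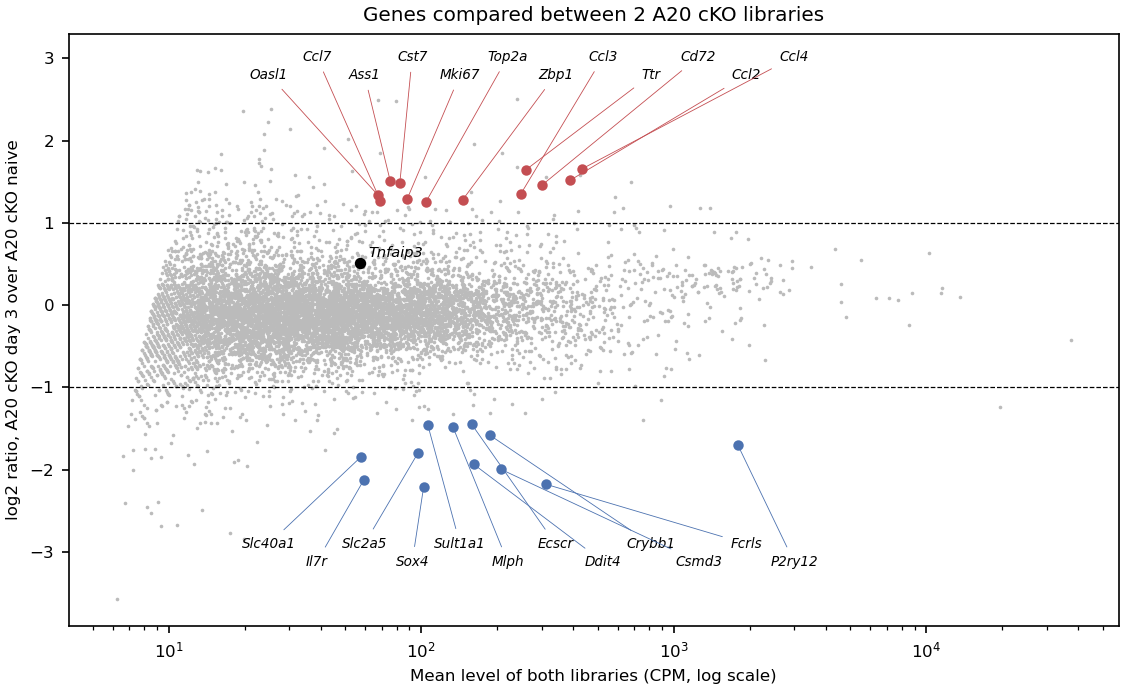
Each grey point is 1 of 8797 genes, plotted by its mean level in both libraries (CPM, log scale) and its log2 ratio of A20 cKO day 3 over A20 cKO naive; dashed lines mark 2-fold. Red and blue points are the 12 genes named in each direction and black is Tnfaip3, at 0.52. The red genes lie between 1.25 and 1.66, while the blue genes reach -2.21, and P2ry12 has the highest mean level of the coloured genes.

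The promoters of 5 genes are shown because interferon-stimulated genes and a growth factor were among the genes that were higher on day 3. They were read from RefSeq (GRCm38.p6), 200 bases before the start site, written 5′ to 3′ on the gene's strand. Capitals mark the core of an interferon response element (GAAA, any 2 bases, GAAA) or an NF-kB site (GGG, any 2 bases, TTTCC). Both were searched on both strands, so a reverse match of the NF-kB site reads GGAAA, any 2 bases, CCC.
Oas3 (chr5:120777660-120777859, minus strand): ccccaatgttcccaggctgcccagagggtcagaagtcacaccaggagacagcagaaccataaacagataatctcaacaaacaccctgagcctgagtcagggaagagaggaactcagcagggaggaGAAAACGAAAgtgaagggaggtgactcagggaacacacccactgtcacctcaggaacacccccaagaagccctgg
Isg15 (chr4:156200819-156201018, minus strand): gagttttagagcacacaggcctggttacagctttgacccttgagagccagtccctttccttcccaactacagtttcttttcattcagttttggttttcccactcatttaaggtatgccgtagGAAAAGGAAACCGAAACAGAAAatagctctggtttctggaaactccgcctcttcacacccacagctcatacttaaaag
B2m (chr2:122147487-122147686, plus strand): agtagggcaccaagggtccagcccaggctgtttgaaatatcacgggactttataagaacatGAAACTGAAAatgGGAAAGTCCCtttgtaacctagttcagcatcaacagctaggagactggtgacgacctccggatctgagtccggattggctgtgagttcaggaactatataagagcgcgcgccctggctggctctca
Csf1 (chr3:107760470-107760669, minus strand): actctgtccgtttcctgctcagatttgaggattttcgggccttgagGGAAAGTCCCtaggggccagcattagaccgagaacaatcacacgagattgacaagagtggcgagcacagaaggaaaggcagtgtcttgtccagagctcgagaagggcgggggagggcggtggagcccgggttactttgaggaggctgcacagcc
Oasl1 (chr5:114923040-114923239, plus strand): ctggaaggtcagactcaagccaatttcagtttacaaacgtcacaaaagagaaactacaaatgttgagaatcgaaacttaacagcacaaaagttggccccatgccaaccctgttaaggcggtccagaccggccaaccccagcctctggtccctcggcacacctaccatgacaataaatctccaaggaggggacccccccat

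Oas3 and Isg15 are interferon-stimulated genes, B2m is the light chain of MHC class I, Csf1 is the growth factor of microglia, and Oasl1 is the interferon-stimulated gene with the largest ratio among the leading 12. The first 4 were picked for display after their values and matches were seen. In Isg15 3 matches overlap, and in B2m an interferon response element and an NF-kB site lie 3 bases apart. In windows that reach from 250 bases before to 50 after the start site, the interferon response element was found in 20 of 33 interferon-stimulated genes with a window (60.6%), in 5 of 17 MHC class I genes (29.4%) and in 3.44% of all 32851 windows. Over all 27025 genes with a window the share was 3.99%. The NF-kB site was found in 3 of 12 inflammatory cytokine genes (25%), in 5 of 23 genes for A20 partners, TNF receptor signalling and cell death (21.7%), in 3 of 17 NF-kB target genes (17.6%), in 1 of 7 chemokine genes (14.3%) and in 1.90% of all genes. The 3 cytokine genes were Csf1, which rose, and Il6 and Il16, which fell past 2-fold. Of the 24 leading genes, 7 that rose and 9 that fell had a window, and none of these held either motif. A match is a description of these letters and not evidence of binding.

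Chemokine genes were among those that rose. Ccl4, a chemokine that attracts monocytes and T cells, was at 209 CPM (200 to 219) in naive animals, 425 on day 1, 446 on day 2 and 662 CPM (631 to 694) on day 3, a log2 ratio of 1.66 (1.56 to 1.76) and the largest of the leading 12, which had a mean of at least 50 CPM. Ccl2, which attracts cells that carry CCR2, was at 201 CPM in naive animals, 562 on day 1, 477 on day 2 and 576 CPM on day 3, a ratio of 1.52 (1.42 to 1.62). Ccl3, the neighbour of Ccl4 on chromosome 11, was at 139.8 CPM in naive animals, 248 on day 1, 181 on day 2 and 356 CPM on day 3 (1.35; 1.22 to 1.47). The level of each of these chemokines was therefore highest on day 3, with Ccl2 close to that level already on day 1. Ccl7, next to Ccl2 in the genome (chr11:82045712-82047525 and chr11:82035571-82037453), rose from 40.5 to 97.6 CPM (1.27; 1.03 to 1.51). All 4 are genes of the CC family, and the days share the naive library as their comparison.

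Of 12 chemokines compared, 4 rose past 2-fold, 1 fell and 11 had a ratio above 0, with a median of 0.85 against -0.098 over all genes. Short of 2-fold, Cxcl16 went from 286 to 542 CPM (0.92), Ccl12 from 1236 to 2290.1 CPM (0.89) and Ccl5 from 1435 to 2508 CPM (0.81). Ccl12 had been at 5152 CPM on day 1, so its level on day 3 was below that of the first day. Cxcl13, a B-cell attractant, was at 536 CPM in naive animals and 785 CPM on day 3 (0.55). Ccl6, another gene of the CC family, fell from 138 to 58.2 CPM (-1.24; -1.50 to -1.0).

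Inflammatory cytokines did not move together. Of 15 compared, 3 rose, 2 fell and the median ratio was -0.02. Csf1 was at 15.9 CPM in naive animals, 25.8 on day 1, 29.7 on day 2 and 47.6 CPM on day 3 (1.58; 1.22 to 1.94). Il12b, a subunit of interleukin 12 and 23, was at 23.4, 39.0, 140.4 and 54.3 CPM in the same order (1.21; 0.89 to 1.53). Tnf was at 54.2, 65.7, 56.0 and 124 CPM (1.19; 0.98 to 1.40). Tnf was thus high on day 3 alone among these libraries, while Il12b was highest on day 2. Il6 fell from 26.6 to 9.05 CPM (-1.53; -2.24 to -0.93), Il16 fell from 88.0 to 41.7 CPM (-1.07), and Il1b was at 12.3 and 10.6 CPM (-0.20; -0.88 to 0.40).

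Among 23 targets and feedback genes of NF-kB, 20 had a ratio above 0, but 1 rose past 2-fold and the median was 0.26. The riser was Bcl2a1d, a survival gene of the BCL2 family whose copies are nearly identical, so that reads could be split among them (118 to 259 CPM, 1.13). Its more abundant copy Bcl2a1b, in the same list, was at 363 and 418 CPM (0.21). Vcam1, an adhesion molecule, was at 48.8 and 87.0 CPM (0.84; 0.59 to 1.07), and Relb, a subunit of the noncanonical pathway, at 35.9 and 56.3 CPM (0.65). The inhibitor gene Nfkbia was at 567 CPM in naive animals and 558 CPM on day 3 (-0.02; -0.11 to 0.06). None of 28 genes for partners of A20, TNF receptor signalling and cell death was past 2-fold in either direction, with a median of -0.08. At the edges of that list, Fadd, the adaptor of death receptors, was at 18.1 and 9.44 CPM (-0.91) and Map3k7, the kinase TAK1, at 15.6 and 22 CPM (0.51).

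Interferon-stimulated genes were higher as a group. Of 44 compared, 11 rose past 2-fold, none fell, and 43 ratios were above 0, with a median of 0.84. Their summed level was 7469 CPM in naive animals, 8472 on day 1, 13144 on day 2 and 13903 CPM on day 3. Oasl1 was at 38.3, 56.8, 78.8 and 96.8 CPM in that order (1.34; 1.09 to 1.58). Zbp1, a sensor of Z-form nucleic acid that can start cell death, was at 85.2, 124, 202 and 207 CPM (1.28; 1.12 to 1.44). Both were near their day 3 level on day 2, and day 3 over day 2 was 0.30 (0.03 to 0.56) for Oasl1 and 0.03 (-0.14 to 0.20) for Zbp1.

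The abundant membrane-restriction factor Ifitm3 was at 781 CPM in naive animals and 1771 CPM on day 3 (1.18; 1.13 to 1.24), and Ifi27l2a at 586 and 1351 CPM (1.20; 1.14 to 1.27). The oligoadenylate synthetases Oas2 (41.9 to 91.7 CPM, 1.13) and Oas3 (15.5 to 37.8 CPM, 1.29) also rose, as did Mnda (97.5 to 219.6 CPM, 1.17) and Pydc4 (114 to 235 CPM, 1.04) of the IFI200 gene cluster. Irf7, the regulator that amplifies interferon production, was just short of 2-fold at 269 and 535 CPM (0.99). Isg15, a ubiquitin-like modifier, was at 182 and 349 CPM (0.94). Irf9, a transcription factor of the interferon response, was at 134 and 140.1 CPM (0.07; -0.11 to 0.24), and Gbp7 at 80.2 and 75.9 CPM (-0.08), the 1 ratio below 0.

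MHC class I genes and the machinery that loads peptides onto them followed with smaller ratios. Of 20 compared, 19 were above 0, 2 rose past 2-fold and the median was 0.52. B2m was at 8053 CPM in naive animals and 12470.4 CPM on day 3 (0.63; 0.61 to 0.65), and the heavy chain H2-K1 at 1231 and 2160.2 CPM (0.81). The risers were Nlrc5, the transactivator of class I genes (14.5 to 32.7 CPM, 1.18), and the nonclassical gene H2-Q7 (216 to 447 CPM, 1.05), whose reads can be shared with its near copies. Of 7 MHC class II genes none was past 2-fold, and the median was 0.02. The invariant chain Cd74 was at 186 and 266 CPM (0.52; 0.39 to 0.65), while the editors H2-DMa and H2-DMb1 had ratios of -0.33 and -0.34.

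**Figure D2:**
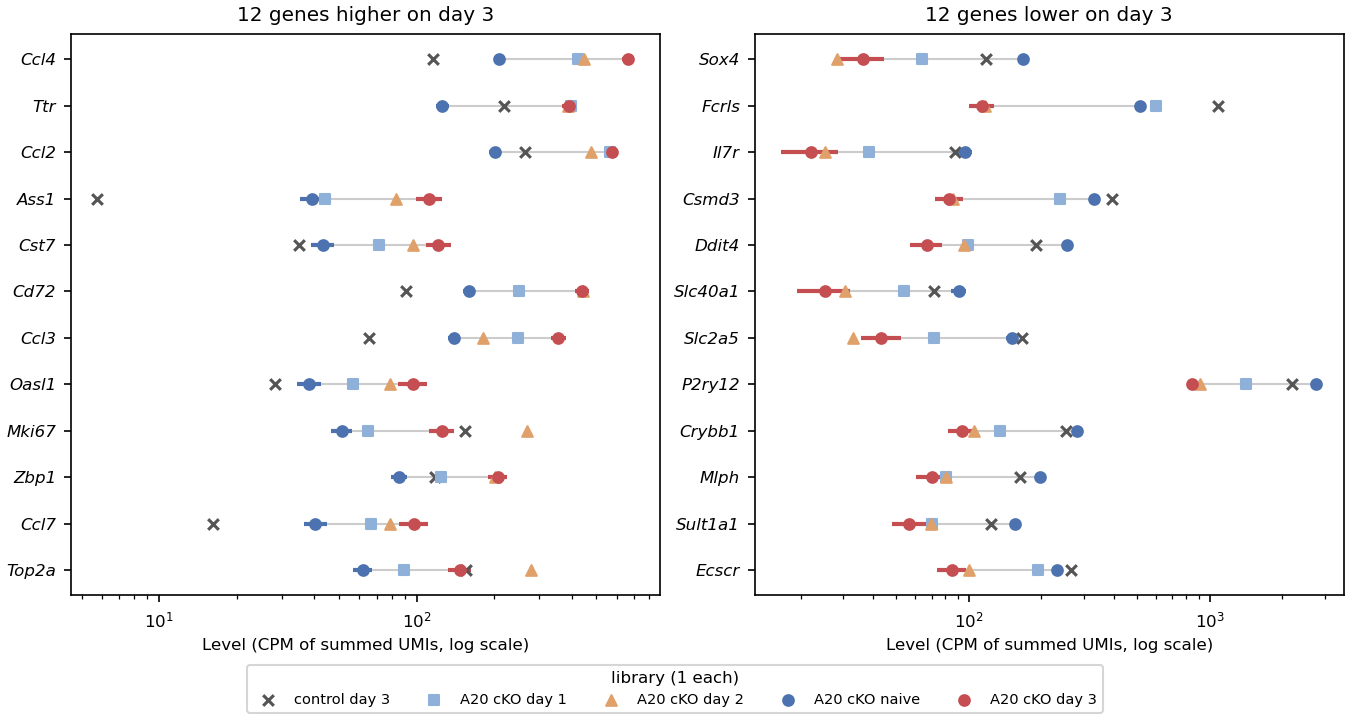
Levels (CPM of summed UMIs, log scale) of the 12 genes named for the largest rise (left) and the 12 for the largest fall (right), 1 symbol per library; bars on the naive and day 3 points are exact 95% Poisson intervals. Fcrls was at 597 CPM on day 1 and 116 CPM on day 2, and Mki67 and Top2a were highest on day 2, at 269 and 277 CPM.

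Genes of the homeostatic program fell. Of 30 compared, 8 fell past 2-fold, none rose and 29 ratios were below 0, with a median of -0.62, against -0.53 once ratios were centred on the median gene. P2ry12, which senses ADP and steers processes to injury, fell from 2755 CPM (2721 to 2790) to 845 CPM (809 to 881), a log2 ratio of -1.71 (-1.77 to -1.64). It was at 1414 CPM on day 1 and 908 CPM on day 2. Its level therefore lay lower on each day than in naive animals, and day 3 over day 2 was -0.10 (-0.19 to -0.02). Fcrls, an Fc receptor-like scavenger receptor (chr3:87250758-87263738), had a different course. It was at 512 CPM in naive animals, 597 on day 1, 116 on day 2 and 113 CPM on day 3 (-2.18; -2.36 to -2.01).

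The other homeostatic genes that fell were Slc2a5, a fructose transporter (151 to 43.3 CPM, -1.80), Crybb1, a crystallin gene (281 to 93.65 CPM, -1.58), Ecscr (232 to 85.0 CPM, -1.45), Gpr34, a lysophosphatidylserine receptor (1094 to 414 CPM, -1.40), Cst3 and Ltc4s, the leukotriene C4 synthase (413 to 188 CPM, -1.14). Cst3, which encodes cystatin C and is among the most abundant RNAs of microglia, fell from 27465 to 11597 CPM (-1.24; -1.26 to -1.23). Other genes that define microglia were lower by less than 2-fold. Cx3cr1, the fractalkine receptor and the locus of the YFP used for sorting, was at 1406 and 896 CPM (-0.65; -0.71 to -0.59). Tmem119 was at 2322 and 1660.1 CPM (-0.48) and the CSF1 receptor gene Csf1r at 1719.6 and 1387 CPM (-0.31). Lpcat2, which remodels phospholipids, was at 1348 and 1371 CPM (0.02; -0.03 to 0.08), the only ratio above 0 in the list. The homeostatic list thus ranged from a 4.52-fold fall of Fcrls to the ratio of 0.02 of Lpcat2.

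Genes outside the homeostatic list stood among the 12 with the largest fall. Sox4, a transcription factor of immature cells, was at 169 CPM in naive animals, 64.1 on day 1, 28.3 on day 2 and 36.2 CPM on day 3 (-2.21; -2.54 to -1.91). Il7r, the interleukin 7 receptor, was at 96.8, 38.6, 25.4 and 22 CPM (-2.12; -2.55 to -1.74). Ddit4, an inhibitor of mTORC1 that glucocorticoids and stress induce, was at 256, 98.7, 95.6 and 66.9 CPM (-1.93; -2.17 to -1.71). For these genes the level on day 1 was already below that of the naive library. Csmd3, a large complement-domain protein gene, was at 332 CPM in naive animals, 238 on day 1, 85.7 on day 2 and 83.0 CPM on day 3 (-2.00). Slc40a1, the iron exporter ferroportin (90.8 to 25.2 CPM, -1.84), Mlph (197 to 70.4 CPM, -1.48) and Sult1a1, a sulfotransferase (156 to 56.7 CPM, -1.46), complete the set. Just short of it were Gpr34 (-1.40) and Lrba (-1.40). In the control libraries Ddit4 lay between 8.04 and 191 CPM and Mlph between 46.0 and 164 CPM. The A20 cKO naive level was thus above the control range for both, as it was for Il7r and Sult1a1. For Sox4, Csmd3 and Slc40a1 the A20 cKO naive level lay within the control range.

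Some genes described in disease-associated microglia rose while others did not. Of 21 compared, 8 rose past 2-fold, none fell and 20 ratios were above 0, with a median of 0.67. Apoe, the lipid carrier, was at 854 CPM in naive animals, 1333 on day 1, 1573 on day 2 and 1928 CPM on day 3 (1.18; 1.12 to 1.23). Cst7, a cystatin of lysosomes, was at 43.3, 71.7, 96.6 and 122 CPM (1.49; 1.27 to 1.71), and Itgax, the integrin CD11c, at 21.9, 23.4, 49.1 and 60.6 CPM (1.47). Each of these was highest on day 3. Spp1, osteopontin, was at 9.08, 11.2, 8.57 and 38.6 CPM (2.08; 1.65 to 2.53), and Lgals3, galectin 3, at 20.3, 17.8, 21.8 and 54.7 CPM (1.43). For both, the first 3 libraries lay close together and day 3 stood above them. The receptor tyrosine kinase Axl (151 to 332 CPM, 1.14), Lpl (21.6 to 45.6 CPM, 1.08) and Ch25h (10.3 to 24.4 CPM, 1.25) were the remaining risers. The receptor Trem2, on which the full program depends, was at 1414 and 1239.9 CPM (-0.19; -0.25 to -0.13).

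Cd72 and Ass1, also among the leading 12, are in none of the lists. Cd72, a C-type lectin with an inhibitory motif, was at 160.3 CPM in naive animals, 249.6 on day 1, 442 on day 2 and 439.5 CPM on day 3 (1.46; 1.34 to 1.57). Ass1, argininosuccinate synthase of the citrulline-arginine cycle, was at 39.2, 44.2, 83.4 and 112 CPM (1.51; 1.28 to 1.74). In the control libraries Ass1 lay between 0 and 5.76 CPM and Cd72 between 27.8 and 91.0 CPM. Just outside the leading 12 were Ifi27l2a (1.20) and Cd244 (1.20).

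Ttr, another of the leading 12, rested mostly on 1 barcode. It encodes transthyretin, which is made by the choroid plexus, and 951 of its 998 UMIs on day 3 and 957 of its 1122 UMIs in naive animals lay under a single barcode, the same in both libraries. The ratio of 1.64 was -0.0016 without barcodes shared between libraries. It was -2.75 without the 8 cells low in microglia markers, 5 on day 3 and 3 in naive animals, a setting added after the data were seen. The other 23 leading genes kept their direction and stayed past 2-fold in both settings.

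Of 16 complement and Fc receptor genes 3 rose, all of them complement components: Cfb (7.85 to 24.4 CPM, 1.64), C4b (19.7 to 42.9 CPM, 1.12) and C3 (27.6 to 59.0 CPM, 1.10). The initiating component C1qa was at 10714 and 12392 CPM (0.21). The Fc receptor gene Fcgr3 was at 1231 CPM in naive animals and 719.7 CPM on day 3 (-0.77; -0.85 to -0.70). None of 20 genes for pattern recognition and the inflammasome was past 2-fold. Within that list Cd14, the lipopolysaccharide co-receptor, was at 399 and 216 CPM (-0.88; -1.02 to -0.75) and Tlr2 at 252 and 396 CPM (0.65; 0.54 to 0.76), so these receptors of bacterial lipids lay on opposite sides of 0.

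**Figure D3:**
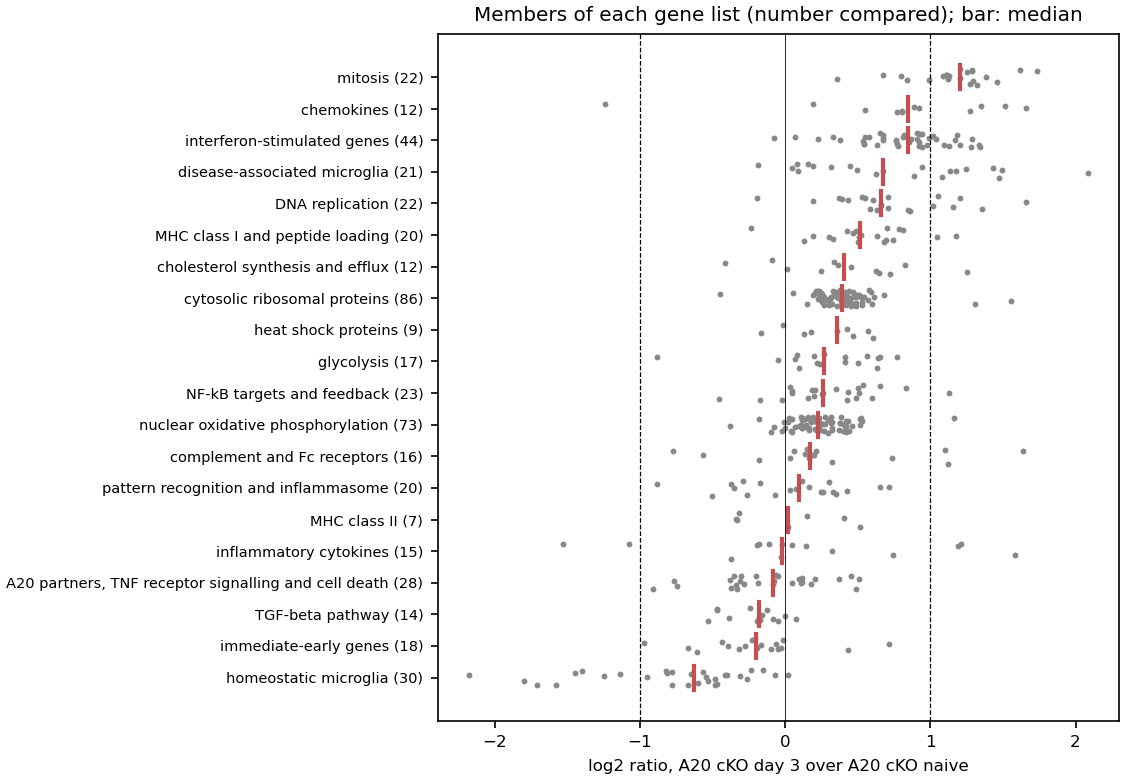
Log2 ratios of A20 cKO day 3 over A20 cKO naive for the members of 20 gene lists, 1 point per gene, with the number compared in brackets, the median as a red bar and dashed lines at 2-fold. Mitosis genes have the highest median (1.20) and homeostatic genes the lowest (-0.62).

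Genes of cell division were higher on day 3. The study measured Ki67 protein in replicate A20 cKO animals by flow cytometry and tissue staining, and reported no proliferation above baseline after injury. The values here are RNA of 1 pooled library a side, an unlike measure without replicates. Of 22 mitosis genes 17 rose past 2-fold and all ratios were above 0, with a median of 1.20. Of 22 DNA replication genes 6 rose and 21 were above 0, with a median of 0.66. Mki67, the proliferation antigen Ki-67, was at 51.1 CPM in naive animals, 64.7 on day 1, 269 on day 2 and 125 CPM on day 3 (1.29; 1.08 to 1.5). Top2a, the topoisomerase of dividing cells, was at 61.8, 89.2, 277 and 147 CPM (1.25; 1.06 to 1.44). Both were highest on day 2, and day 3 over day 2 was -1.10 (-1.30 to -0.92) for Mki67 and -0.91 (-1.09 to -0.74) for Top2a. Cdk1, the mitotic kinase, was at 12.6, 13.5, 41.2 and 32.7 CPM (1.38; 0.95 to 1.80). Rrm2, which makes deoxynucleotides, was at 12.2, 11.6, 40.9 and 38.6 CPM (1.66). Myc, a driver of growth and cycle entry, was at 54.8, 85.5, 41.5 and 38.6 CPM, with a day 3 ratio of -0.50.

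Cells with UMIs of at least 3 mitosis genes, after each cell was thinned to 2000 UMIs, made up 8.36% (6.17 to 11) of 538 cells on day 3 and 3.33% (2.68 to 4.09) of 2612 naive cells. For replication genes the shares were 12.6% (9.95 to 15.7) and 7.77% (6.77 to 8.87). Without thinning they were 12% and 4.04% for mitosis and 25.1% and 13% for replication. None of the 8 cells low in microglia markers had 3 genes of either list, which allows a share of up to 37.5%, and those cells had a median of 1607 UMIs on day 3 and 1567 in naive animals. In another setting all cells with 3 genes of either list before thinning were left out (28.9% of day 3 and 14.2% of naive cells). Day 3 cells had more UMIs (median 4274 against 2824), which makes that rule easier to pass. Without these cells the median was -0.095 for mitosis and -0.19 for replication, and the ratio of Cdk1 was -0.04. Mki67 and Top2a were then short of 2-fold (0.77 each), and the other 22 leading genes stayed past it.

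Shares of cells with at least 3 UMIs of a gene also differed, and they depend on the level of the gene, since P2ry12 had a mean of 5.84 UMIs per thinned naive cell and Ccl4 of 0.368. In thinned cells, 3 or more P2ry12 UMIs were found in 73.9% (72.2 to 75.6) of naive cells and 27.7% (24.0 to 31.7) on day 3, and the median was 5 and 1 UMIs. For Fcrls the shares were 14.2% (12.8 to 15.6) and 2.23% (1.16 to 3.86). For Cx3cr1 they were 50.3% and 25.5%. Ccl4 reached 3 UMIs in 3.10% (2.47 to 3.84) of naive cells and 9.67% (7.30 to 12.5) on day 3, and the 10% of cells with most of it held 90.5% and 84.1% of its UMIs. Ccl2 reached 3 UMIs in 3.68% (2.99 to 4.47) and 13.4% (10.6 to 16.6) of cells, and its top 10% held 82.0% and 57.6%. The share held by the top 10% also depends on the mean, which was 0.329 and 1.05 Ccl2 UMIs per thinned cell. The lower share on day 3 alone therefore does not show another distribution among cells. For Cd72 the shares were 1.61% and 6.88%. Thinned to 1000 UMIs, the shares in naive animals and on day 3 were 49.6% and 8.96% for P2ry12, 1.51% and 5.56% for Ccl4, and 1.51% and 5.91% for Ccl2. The directions for these 3 genes held at that depth, but 38 of 48 such shares of the leading genes moved beyond their intervals. None of the 8 cells low in microglia markers had 3 UMIs of any of these genes, which allows a share of up to 37.5%. P2ry12 and Cx3cr1 are among the markers by which those cells were chosen, so for them this result followed from the choice.

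Cells with at least 3 Ccl4 UMIs, 52 on day 3 and 81 in naive animals, also held more of other chemokines in both libraries. On day 3 they had 1740.4 CPM of Ccl3 and 1385 CPM of Ccl2, against 162 and 432 CPM in the other cells. In naive animals the values were 1290.1 and 1198 CPM against 86.3 and 131 CPM. Tnf was at 548 CPM in these cells and 60.7 CPM in the others on day 3, and at 481 and 33.8 CPM in naive animals. Ccl2 was thus also higher on day 3 among the cells with fewer than 3 Ccl4 UMIs. Apoe was higher on day 3 in both classes, at 1885 against 728 CPM in the Ccl4-rich cells and 2027 against 820 CPM in the others. In the Ccl4-rich cells P2ry12 was at 712 CPM on day 3 and 1586 CPM in naive animals. Il1b was at 19.2 and 148 CPM there, but the day 3 value rests on too few UMIs for a comparison. Over the whole libraries Il1b was at 10.6 and 12.3 CPM (-0.20).

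Summed over a list, the distributions per cell of 2000 UMIs also shifted. Homeostatic genes had a median of 69 UMIs on day 3 and 130 in naive animals, with the middle 80% of cells between 46 and 104 and between 66 and 192. Interferon-stimulated genes had a median of 24 UMIs on day 3, with the middle 80% between 11 and 48. In naive animals their median was 7, between 2 and 32, so the lower end of that range on day 3 lay above the naive median. MHC class I genes had medians of 46 and 23 UMIs, and chemokines of 11 and 4. The naive library thus held cells at the day 3 levels of these lists, but as a smaller share.

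Cells were also placed by their P2ry12 UMIs, because the naive library spanned a wide range. Cells without a P2ry12 UMI made up 25.7% (22 to 29.6) of day 3 and 6.20% (5.31 to 7.20) of naive cells, and cells with 6 or more made up 2.79% (1.57 to 4.56) and 46.4% (44.5 to 48.3). In cells without P2ry12 UMIs the interferon-stimulated genes summed to 14301 CPM on day 3 and 13698 CPM in naive animals, which are close to each other. In cells with 3 to 5 they summed to 11366 and 7355 CPM, and in those with 6 or more to 10700.0 and 3200.5 CPM, the day 3 value from 15 cells. Homeostatic genes other than P2ry12 were lower on day 3 in every class, at 30504 against 36324 CPM without P2ry12 UMIs and 39612 against 55946 CPM with 3 to 5. Apoe was higher on day 3 in every class, at 2080 against 1605 CPM without P2ry12 UMIs and 1940.3 against 849.6 CPM with 3 to 5. Chemokines were not: they summed to 12725 CPM on day 3 and 11188 CPM in naive animals without P2ry12 UMIs, but to 7833 and 8364 CPM with 1 to 2. With 3 to 5 they summed to 6086 and 4314 CPM, and with 6 or more to 4500 and 1676 CPM. Few UMIs per cell set these classes, so counting error moves cells between neighbouring ones.

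**Figure D4:**
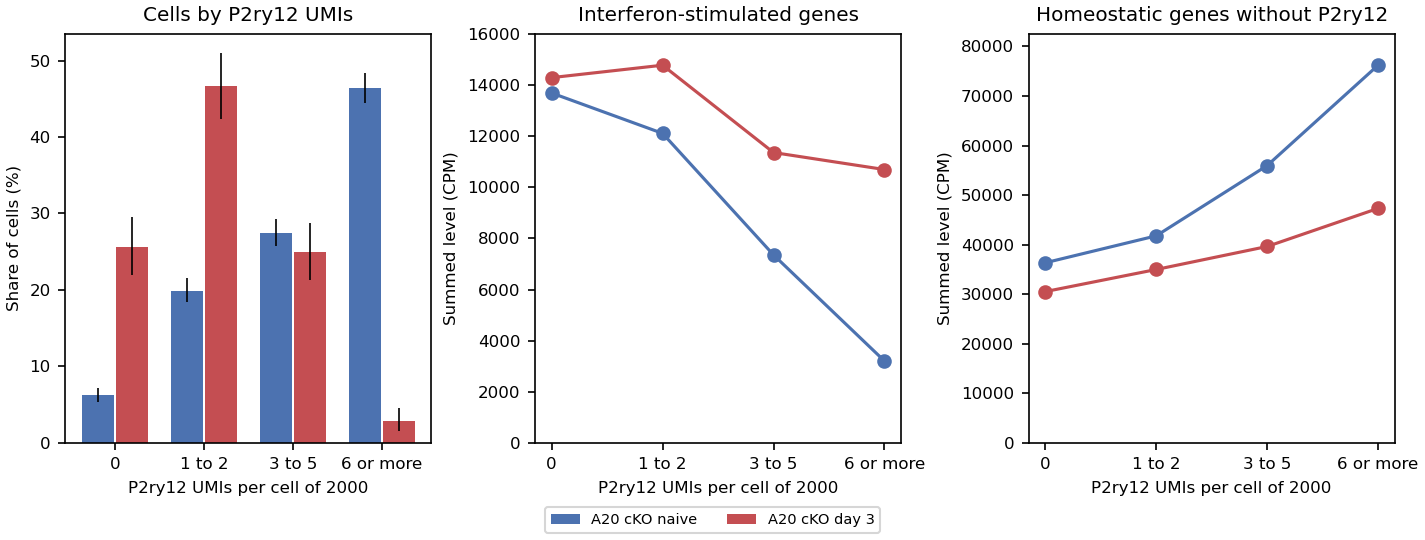
Left, share of cells (%) by P2ry12 UMIs after thinning to 2000 UMIs, with exact 95% binomial intervals as bars; middle and right, summed level (CPM) of interferon-stimulated genes and of homeostatic genes other than P2ry12 in the same classes. The interferon curves meet at 0 P2ry12 UMIs (14301 and 13698 CPM) and part at 6 or more (10700.0 and 3200.5 CPM).

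Immediate-early genes, which respond to stimulation and to tissue handling within minutes, were mostly higher in the naive and day 3 libraries than in those of the days between, with Klf4, Ier3 and Fosl2 as exceptions. Of 18 compared none was past 2-fold and the median was -0.20. Fos was at 508 CPM in naive animals and 504 CPM on day 3 (-0.01; -0.10 to 0.08), but at 13.2 and 21.1 CPM on days 1 and 2. Egr1 was at 219 and 210.1 CPM (-0.06), against 11.6 and 7.58 CPM on days 1 and 2. Jun was at 1527 and 1001 CPM (-0.61), against 177 and 184 CPM on days 1 and 2. Fosb was at 110 and 88.1 CPM, against 1.65 and 5.93 CPM on those days. Dusp1 was at 236 and 204 CPM, against 16.8 and 38.9 CPM. For each of these genes the libraries of days 1 and 2 stood apart from the 2 compared here. The part of this in the day-by-day values above was not tested. Klf4 was at 62.1 CPM in naive animals, 32.4 on day 1, 25.4 on day 2 and 31.5 CPM on day 3 (-0.97; -1.34 to -0.64), so its day 3 level lay with those of days 1 and 2. Of 9 heat shock genes none was past 2-fold, with a median of 0.36.

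Lists of protein synthesis and metabolism had median ratios short of 2-fold, but their members spread more widely, as from -0.88 to 0.77 in glycolysis. Of 86 cytosolic ribosomal protein genes 85 had a ratio above 0, with a median of 0.39 (0.49 once centred), and 2 rose past 2-fold. Those 2, Rpl6l (1.56) and Rps27rt (1.31), are near copies of Rpl6 and Rps27, so their reads may belong to the parent genes. Of 73 nuclear genes of oxidative phosphorylation 67 were above 0, with a median of 0.22, and Cox6a2, a tissue-restricted subunit of cytochrome c oxidase, rose from 55.2 to 124 CPM (1.16). Of 17 glycolysis genes none was past 2-fold and the median was 0.27, with Gapdh at 407 and 695 CPM (0.77) and Ldha at 166 and 261 CPM (0.65). Of 12 genes of cholesterol synthesis and efflux 1 rose, 10 ratios were above 0 and the median was 0.41. Only Mylip, an E3 ubiquitin ligase (-0.42), and Abca1, a cholesterol exporter (-0.09), had a mean of at least 50 CPM, so that the median was -0.25 over these 2 genes. Of 14 genes of the TGF-beta pathway, which maintains the homeostatic program, none was past 2-fold, with a median of -0.18 and Tgfbr1 at 1191 and 826 CPM (-0.53).

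The control library of the same day crosses this comparison. In control day 3 P2ry12 was at 2191 CPM, Fcrls at 1078, Apoe at 310.0, Ccl5 at 34.9 and Mki67 at 154 CPM, so that for Mki67 the A20 cKO day 3 library lay below it and for Apoe and Ccl5 above it.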

How the data were processed

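Members, gene lists and comparisons were chosen with earlier results of these data known. The deposited files hold counts: for each library, unnormalized UMIs of every gene under every called cell barcode. Per the submitters' processing notes they used Cell Ranger 2.1.1 and mm10. Labels and methods differ on the kit version. Cells were kept at 1000 UMIs, 500 genes and 10% mitochondrial UMIs. Doublets were not called here. The study's methods describe doublet exclusion during sorting, which came before cells were put into droplets. UMIs were summed per library and given as CPM, and log2 ratios were taken after 0.5 UMIs were added, for genes with 100 UMIs in both sums together. With 1 library a side no test was run. Calls are ratios past 2-fold. Intervals are exact (Poisson, Clopper-Pearson, and conditional binomial for ratios) at 95% and cover counting error only. Where 0 cells are counted, the limit given is that of 3 counts. Shares of cells used cells thinned without replacement to 2000 UMIs, which left out 20 day 3 and 310 naive cells. Cells low in microglia markers had a marker share below 0.1 of their library's median.

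Named genes were the 12 largest ratios in each direction among genes past 2-fold with a mean of at least 50 CPM, leaving out predicted genes, Xist, genes of the Y chromosome or of the mitochondrial genome, and ribosomal proteins, then the 2 extreme members of each list in each direction at 20 CPM or more, and a fixed set that included Tnfaip3, Myc, Mki67 and P2ry12. Other genes were named after their values were seen. The lists cover 20 gene groups and 13 cell types. Gene positions are from GENCODE on GRCm38, the assembly of mm10. Promoters were matched by symbol to RefSeq windows. The calculation of ratios was checked on simulated Poisson counts with known changes. That setting holds no spread between cells, animals or preparations, so it says nothing about such spread. Python 3.11.15, numpy 2.4.6, pandas 2.3.3, scipy 1.17.1, R 4.3.3 and edgeR 4.0.16 (for TMM factors) were used. Alternatives covered scaling, gene and cell filters, added UMIs, shared barcodes, cells with cycle genes and thinning. Some members of the lists and of the named set are not reported here.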

Additional observations from a re-analysis of the deposited data

How the results depend on the processing

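No paired analysis was possible because each condition had 1 library and the labels give no replicate numbers. The count of genes past 2-fold, 169 higher and 176 lower, was 448 and 424 with a minimum of 20 UMIs, 60 and 43 at a mean of 50 CPM, and 488 and 821 at 1.5-fold. With 5 UMIs added, 106 genes were lower. The other settings kept both counts within 1.5 times. The median of mitosis genes (1.20) was -0.095 without cells with cycle genes and that of replication genes (0.66) was -0.19, since those cells were chosen by these genes. Cdk1 (1.38) was then -0.037. Ttr (1.64) was -0.0016 without shared barcodes and -2.75 without cells low in microglia markers. For interferon-stimulated genes (0.84) the median was 1.05 as the mean of cell CPM and 1.05 without the 5% of cells with most UMIs, 1.01 without cycle cells and 0.98 in thinned cells. For chemokines (0.85) it was 1.10 and 1.12 in the first 2 of these settings, and for MHC class I (0.52) 0.67 without cycle cells. At 50 CPM the medians were 0.47 for disease-associated genes (0.67), 0.41 for glycolysis (0.27) and -0.25 for the 2 cholesterol genes left (0.41). Centring gave -0.53 for homeostatic (-0.62) and 0.49 for ribosomal genes (0.39). For every value not explained by the construction of the setting the cause was not tested. Tnfaip3 stayed above 0 and short of 2-fold under the 11 settings tried for it. A difference between single libraries cannot be told apart from one between preparations, and the day 3 library, with fewer cells, gives the wider intervals.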
